A study of Mus musculus with 18 samples.

Results

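J774 macrophages that had taken 10 µg of talc per well were set against J774 macrophages that had taken 10 µg of titanium dioxide (TiO2) per well, both without estradiol. J774 is an established mouse macrophage line, so all arrays come from 1 line grown in medium without phenol red. The 3 talc arrays and the 3 TiO2 arrays were chosen by their sample descriptions and make up 6 of the 18 arrays of the series. The other 12 arrays belong to 4 groups of 3: talc plus estradiol and TiO2 plus estradiol (10 µg of particles per well with 2 µg/mL estradiol), estradiol alone (2 µg/mL), and vehicle without particles. All cells were kept in 24 well plates and lysed for total RNA after 24 hours. Particles were matched by mass. Their size, number, surface area and purity are not given in the sources used here, so mineral and these properties cannot be told apart.

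Macrophages take up mineral particles through scavenger and lectin receptors and digest what they can in lysosomes. Engagement of such receptors, or damage to the lysosome, is known to activate the transcription factor NF-kB, MAP kinases and the AP-1 factors of the Fos and Jun families, which switch on chemokines, cytokines and cyclooxygenase. Talc is a layered magnesium silicate, and TiO2 is a metal oxide that is often used as a comparison particle. J774 cells divide in culture, so genes of DNA replication and mitosis are part of their ordinary transcriptome.

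Intensities of 269751 probe sets gave log2 values for 23102 genes, each the mean over the gene's probe sets. Array medians lay between 46.3 and 47.2 intensity units in the talc arrays and between 46.7 and 47.1 in the TiO2 arrays. All 10 macrophage markers on the list lay above the median level of all genes, from percentile 67.9 (Adgre1) to 99.9 (Cd68). Their summed intensity was 20780 to 21560 with talc and 20540 to 21500 with TiO2. Of these markers 2 were lower with talc, Itgam (-0.46 ± 0.10) and Fcgr1 (-0.29 ± 0.08), with calls lost in 2 of 14 and 9 of 14 alternatives tried, and the list median relative to vehicle was -0.14, -0.10 and -0.18 in the talc arrays, against -0.05, 0.02 and 0.04 in the TiO2 arrays, without overlap. The 2 lower of 10 markers stand against 5.35% of all genes lower. In a refit of genes above the median level 4 of the 10 were lower, against 1705 of 11540 genes. With the brightest probe sets 0 were lower. The part of these markers in the results below was not tested. None of 8 fibroblast, 8 epithelial, 7 lymphocyte and 8 granulocyte and mast cell markers passed the test, and their summed intensities were 142 to 170 against 140 to 162, 177 to 214 against 171 to 185, 89.0 to 95.2 against 79.7 to 84.6, and 80.1 to 95.6 against 86.3 to 96.9 (talc against TiO2 in each pair). Whether the replicate arrays stem from separate cultures is not stated in the labels, so p-values measure only how these samples scatter, which may be technical. The array numbers follow the groups, with 7 to 9 for talc and 13 to 15 for TiO2, so particle and position in that numbering cannot be told apart. In bulk RNA, fewer cells that express a gene and less RNA per cell cannot be told apart.

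Talc and TiO2 cells differed in 2301 of 23102 genes (9.96%) at an adjusted p under 0.05 in limma, with 1064 genes higher (4.61%) and 1237 lower (5.35%) in talc cells. At least 2-fold differences were seen in 59 of the higher and 66 of the lower genes, and the median size over all 2301 was 0.55 log2 units. The median over all genes was 0.03. The 3 talc arrays did not overlap the 3 TiO2 arrays in 2281 of the 2301 genes, and in 6091 of all genes (26.4%). Where a passing gene is said below not to overlap, this was therefore nearly fixed by its call. Of the 2301 genes, 2108 (91.6%) lay above the median level. A refit of the 11540 genes above that level gave 1410 higher and 1705 lower. The shares of all genes, against which the list counts below stand, are therefore smaller than the shares among genes of that level. Probe sets of a gene often lay on the same side: in 937 of 2195 passing genes with at least 3 probe sets (42.7%) every probe set lay on the gene's side, against 11.8% of all such genes, and in 0 did most probe sets lie on the other side. Both the call and the side come from the mean of these same probe sets. Part of this agreement is therefore fixed by the choice of genes. The genes nearest to the threshold were Dhx33 (0.35) and Dnajc25 (0.35) inside it and Acp2 (0.30) and Pqlc3 (-0.34) outside it. With array medians subtracted, 732 genes were higher and 1449 lower (33.6% higher, against 46.2%), so the balance of the directions rests on the scaling. The comparison was refitted under 14 alternatives, or 13 for genes below the median level. A gene named below kept its call and its direction in all of them unless a loss is stated. Ccl7, Ptges, Ltc4s, Hpgds, Mapk14, Dusp14, Gem, Pltp, Birc5, Cdc20 and Kif23, named as list members, and Acadvl, Fcamr and Ttc34 were not followed through the alternatives.

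The largest difference among the 2301 genes was in Snhg15, a host gene of small nucleolar RNAs, with log2 intensities of 8.87, 8.75 and 9.16 with talc, against 6.26, 6.03 and 6.67 with TiO2. Every talc array lay well above the highest TiO2 array, and the difference was 2.61 ± 0.18 (adjusted p = 4.36e-07), or 6.09-fold. Fos, the partner of Jun in the AP-1 transcription factor, had 6.46, 6.76 and 6.8 with talc, against 4.74, 4.32 and 4.36 with TiO2, a difference of 2.2 ± 0.15 (adjusted p = 4.36e-07). The vehicle arrays, at 4.37, 4.34 and 4.37, lay within the range of the TiO2 arrays. Ptgs2, the inducible cyclooxygenase that makes the precursor of prostaglandins, had 7.19, 7.24 and 7.58 with talc, against 4.93, 5.32 and 5.54 with TiO2, and differed by 2.07 ± 0.20 (adjusted p = 1.17e-05). The talc and TiO2 arrays did not overlap in any of the 3 genes, as the rule for the largest rises required.

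Pgf, placental growth factor, a VEGF family ligand, had 5.71, 5.02 and 5.81 with talc, against 3.77, 3.07 and 3.54 with TiO2, and differed by 2.05 ± 0.21 (adjusted p = 1.76e-05). Osbp2, an oxysterol-binding protein, had 7.82, 7.71 and 7.73 with talc, against 5.63, 5.78 and 5.81 with TiO2, with little spread within either group, and a difference of 2.02 ± 0.09 (adjusted p = 1.96e-09). Il1rn, which encodes the soluble antagonist of the interleukin-1 receptor, had 8.34, 8.13 and 8.59 with talc, against 6.14, 6.47 and 6.74 with TiO2. The difference was 1.91 ± 0.17 (adjusted p = 6.7e-06), and the vehicle arrays, at 6.7, 6.83 and 6.87, overlapped the upper end of the TiO2 arrays. Clec4n, the lectin receptor Dectin-2, had 7.1, 7.43 and 7.28 with talc, against 5.41, 5.2 and 5.69 with TiO2, with a difference of 1.84 ± 0.21 (adjusted p = 3.09e-05). The neutrophil chemokine Cxcl2 had 8.39, 8.34 and 8.7 with talc, against 6.84, 6.6 and 6.74 with TiO2, with a difference of 1.75 ± 0.13 (adjusted p = 1.08e-06). In all 5 genes talc and TiO2 arrays stood clear of each other, as the rule for the largest rises required. With the brightest probe set in place of the mean, Pgf differed by 3.77 and Cxcl2 by 2.68, each over 1.5 times the value from the mean. The files give no detection call, so whether Pgf or other genes near the bottom of the range were above background in TiO2 cells was not tested.

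The remaining large rises included Stmn4, a stathmin that binds tubulin (1.56 ± 0.16, adjusted p = 1.75e-05), Rgs1, an inhibitor of G protein signalling (1.54 ± 0.19, adjusted p = 6.41e-05), Gadd45b, a stress-induced gene that acts on MAP kinase kinases (1.46 ± 0.14, adjusted p = 1.35e-05), and Pinx1, a nucleolar protein that binds telomerase (1.41 ± 0.18, adjusted p = 7.54e-05). In Gadd45b the arrays read 8.6, 8.32 and 8.7 with talc, against 6.84, 7.22 and 7.18 with TiO2, without overlap, as the rule required. Stmn4 differed by 2.69 with its brightest probe set. The ribosome assembly factor Rrp12 rose by 1.38 ± 0.13 (adjusted p = 7.47e-06), with 25 of its 27 probe sets higher, but its brightest probe set differed by -0.03 and lost the call. Rpl39, a ribosomal protein gene measured by 1 probe set at intensity percentile 6.4, also met the rule with 1.88 ± 0.57 (adjusted p = 0.0451), and lost its call in 11 of 13 alternatives.

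**Figure D1:**
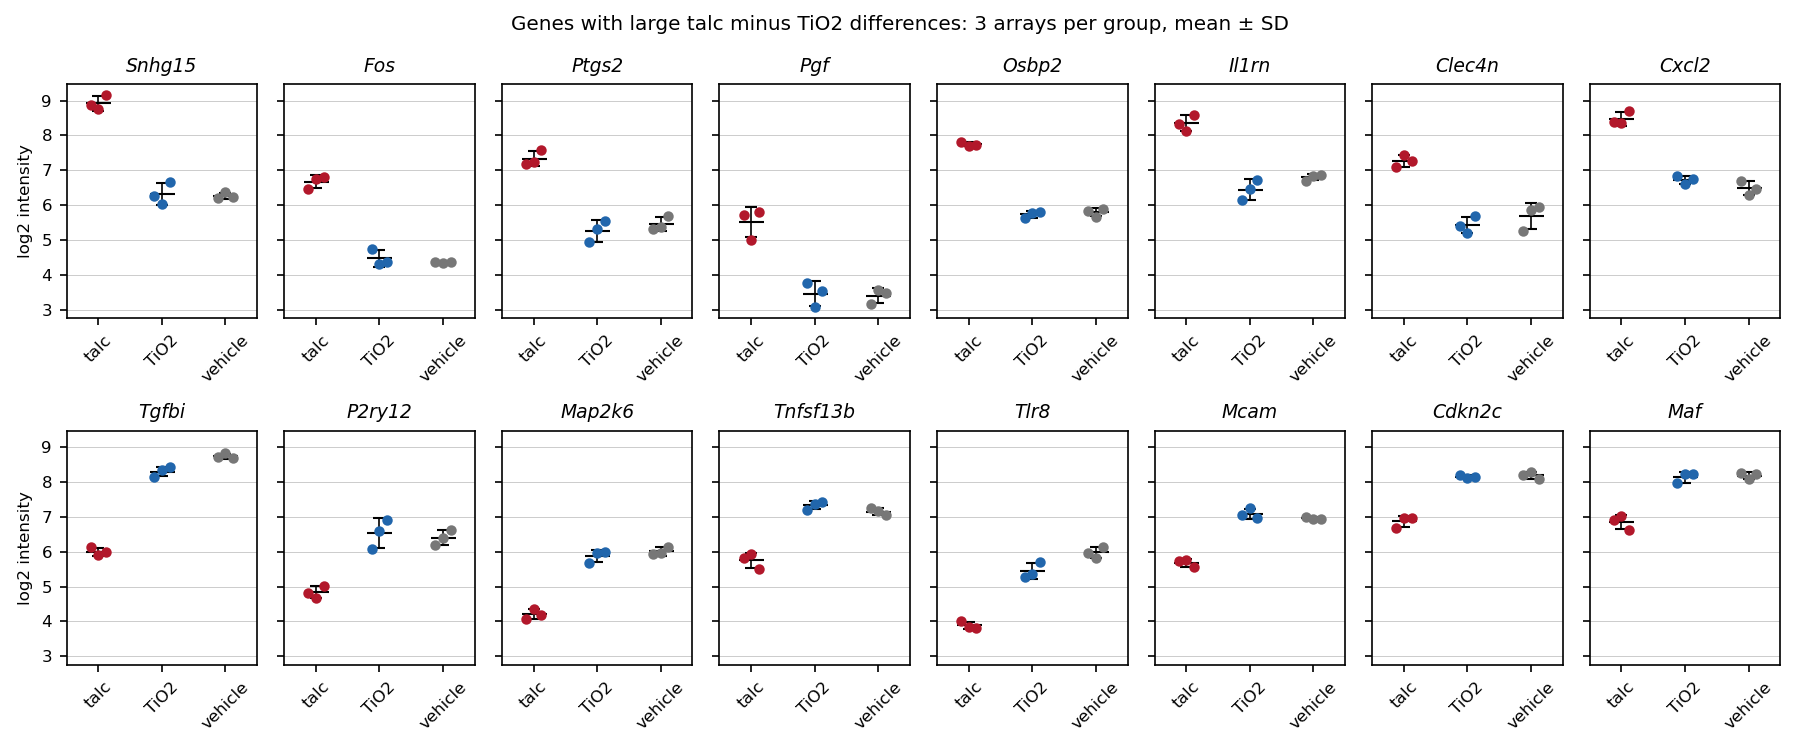
Log2 intensity (vertical axis) of 16 genes in the talc, TiO2 and vehicle arrays. Each point is 1 array, the long line is the mean of 3 arrays and the bars are ± 1 SD. The upper row holds genes that were higher with talc and the lower row genes that were lower. In all 16 the talc points lie apart from the TiO2 points, because only genes without overlap were chosen. Snhg15 averaged 8.93 with talc and 6.32 with TiO2.

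Tgfbi, an extracellular matrix protein induced by TGF-beta that macrophages secrete, showed the largest fall. Its log2 intensities were 6.12, 5.9 and 5.98 with talc, against 8.15, 8.33 and 8.42 with TiO2, and the vehicle arrays were higher still, at 8.7, 8.83 and 8.69. The nearest arrays of the groups were still far apart, and the difference was -2.3 ± 0.10 (adjusted p = 1.53e-09), or 4.92-fold lower. Beside Ugt1a2, described below, the next falls were these. P2ry12, a receptor for ADP, had 4.83, 4.68 and 5.03 with talc, against 6.09, 6.6 and 6.92 with TiO2, a difference of -1.69 ± 0.19 (adjusted p = 3.38e-05). Map2k6, the kinase that activates p38, had 4.06, 4.36 and 4.2 with talc, against 5.67, 5.96 and 5.98 with TiO2, a difference of -1.66 ± 0.13 (adjusted p = 2.16e-06), or -0.83 with the brightest probe set. In both genes all talc arrays lay below the lowest TiO2 array, as the rule for the largest falls required. Tnfsf13b, the B cell survival factor BAFF, had 5.83, 5.93 and 5.5 with talc, against 7.2, 7.38 and 7.43 with TiO2 and fell by 1.58 ± 0.14 (adjusted p = 4.46e-06). Tlr8, a sensor of RNA in endosomes, had 4.0, 3.84 and 3.82 with talc, against 5.27, 5.36 and 5.71 with TiO2, with a difference of -1.56 ± 0.19 (adjusted p = 6.41e-05).

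Further falls were in Abcd2, a peroxisomal transporter of fatty acids (-1.51 ± 0.27, adjusted p = 0.00166), Mcam, an adhesion molecule (-1.42 ± 0.12, adjusted p = 4.46e-06), Epsti1 (-1.39 ± 0.13, adjusted p = 8.25e-06), Cd300lg (-1.39 ± 0.17, adjusted p = 6.41e-05), Tcf19 (-1.28 ± 0.10, adjusted p = 2.12e-06) and Lbh (-1.28 ± 0.13, adjusted p = 1.71e-05). Cdkn2c, which encodes the CDK4 and CDK6 inhibitor p18, had 6.68, 6.96 and 6.96 with talc, against 8.21, 8.13 and 8.13 with TiO2. The TiO2 arrays lay close together and the talc arrays stood apart below them, with a difference of -1.29 ± 0.11 (adjusted p = 4.46e-06), or -0.78 with the brightest probe set. Maf, a transcription factor of mature macrophages, had 6.92, 7.02 and 6.62 with talc, against 7.96, 8.23 and 8.22 with TiO2 and differed by -1.28 ± 0.14 (adjusted p = 1.98e-05). Its call was lost with the brightest probe set (-0.73). Ugt1a2 qualified with -2.29 ± 0.68 (adjusted p = 0.0428) from 1 probe set, lost its call in 9 of 13 alternatives, and belongs to a locus whose isoforms share exons, so its value is uncertain. Predicted genes and clones accounted for 60 of the higher and 64 of the lower genes.

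Promoter windows from RefSeq (GRCm38.p6), 250 bases before to 50 after the transcript start, are shown for Fos and Cxcl2, as rises of an AP-1 gene and an NF-kB type chemokine gene, and for Tgfbi, the largest fall. The choice was made after their values were seen. Motifs were sought on both strands, and matches are in capitals. The NF-kB letters were GGNNTTTCC, the AP-1 letters TGANTCA and the cyclic AMP response element TGACGTCA. For cell cycle genes the letters were the CCAAT box, the cell cycle homology region with its letters TTTGAA, and TTTNNCGC for E2F. The TATA box was sought as TATAA and the CArG box of serum response factor by name. Fos lies at chr12:85473640-85473939 (+ strand) and its window holds a TATA match 33 bases before the start. Cxcl2 lies at chr5:90903649-90903948 (+ strand), with NF-kB matches that begin 96 and 77 bases before the start. Tgfbi lies at chr13:56609336-56609635 (+ strand), and none of these letters is in its window.
Fos: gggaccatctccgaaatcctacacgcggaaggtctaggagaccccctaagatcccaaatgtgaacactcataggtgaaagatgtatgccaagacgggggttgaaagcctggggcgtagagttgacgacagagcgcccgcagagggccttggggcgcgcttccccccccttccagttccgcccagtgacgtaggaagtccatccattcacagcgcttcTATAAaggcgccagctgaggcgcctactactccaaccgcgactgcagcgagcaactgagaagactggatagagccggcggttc
Cxcl2: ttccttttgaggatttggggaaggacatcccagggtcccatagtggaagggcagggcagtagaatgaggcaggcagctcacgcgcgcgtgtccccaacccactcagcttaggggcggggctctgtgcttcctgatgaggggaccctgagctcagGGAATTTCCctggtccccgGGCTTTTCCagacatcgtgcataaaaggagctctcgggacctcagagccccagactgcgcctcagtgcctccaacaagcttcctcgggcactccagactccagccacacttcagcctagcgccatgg
Tgfbi: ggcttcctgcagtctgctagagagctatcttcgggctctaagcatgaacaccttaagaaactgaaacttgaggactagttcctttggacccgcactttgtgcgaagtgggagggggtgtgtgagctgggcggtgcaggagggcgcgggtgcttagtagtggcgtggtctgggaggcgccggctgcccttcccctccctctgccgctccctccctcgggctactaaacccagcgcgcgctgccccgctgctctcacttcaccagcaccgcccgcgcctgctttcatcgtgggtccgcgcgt

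The NF-kB letters occurred in the windows of 7 of 18 genes of the NF-kB list that had one (38.9%), in 2 of 9 of the 14 largest rises (22.2%), in 0 of 11 of the 14 largest falls, and in 1790 of all 27025 genes with a window (6.62%). These shares are descriptions, and a match is not a bound site.

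Among 24 NF-kB subunits, inhibitors and target genes, 16 were higher with talc (66.7%, against 4.61% of all genes) and 0 lower, and the list median was 0.49. In the refit of genes above the median level, 17 of 23 were higher, against 1410 of 11540 genes. The higher count was 11 with the brightest probe sets and 12 to 14 with 1 array left out. In single arrays, the list median relative to vehicle was 0.41, 0.45 and 0.52 with talc, against -0.09, 0.01 and 0.03 with TiO2. The talc arrays were all above the TiO2 arrays. Icam1, an adhesion molecule and a common NF-kB target, had 9.21, 9.21 and 9.25 with talc, against 8.38, 8.42 and 8.34 with TiO2. Its arrays differed little within each group, and the difference was 0.84 ± 0.09 (adjusted p = 1.76e-05). Sod2, the mitochondrial superoxide dismutase, rose by 0.70 ± 0.10 (adjusted p = 0.000312). Traf1, an adaptor of TNF receptors, rose by 0.91 ± 0.11 (adjusted p = 4.34e-05), with 1.96 for its brightest probe set and 0.33, no longer passing, for the median of its probe sets. The inhibitor Nfkbie rose by 0.59 ± 0.09 (adjusted p = 0.000666) and lost its call with the brightest probe set (0.49). Of the 8 members that did not pass, Nfkb1 differed by -0.05, Nfkbid by 0.01, Cd40 by 0.07 and Cd83 by 0.01.

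Of 24 immediate early transcription factors and related genes, which respond to signals within minutes without new protein synthesis, 10 were higher and 1 lower with talc, with a median of 0.34. The number higher was 6 with array medians subtracted, 6 with the brightest probe sets, 5 without talc replicate 3, and 6 without TiO2 replicate 1 or 2. After Fos, the leading members were Fosl2, another AP-1 subunit, at 8.73, 8.88 and 8.76 with talc, against 7.7, 8.22 and 7.94 with TiO2 and a difference of 0.84 ± 0.12 (adjusted p = 0.000208), and Junb, a Jun family member, at 8.75, 8.67 and 8.8 with talc, against 7.94, 8.09 and 7.92 with TiO2 and a difference of 0.76 ± 0.11 (adjusted p = 0.000199). Both separated the groups completely, as nearly all passing genes did. Egr2 rose by 0.69 ± 0.12 (adjusted p = 0.00134) and lost its call with the median of probe sets (0.66). Klf2, a zinc finger factor that restrains inflammatory genes in macrophages, was the 1 member that fell, at 7.18, 7.31 and 6.93 with talc, against 7.91, 7.68 and 7.74 with TiO2 and -0.64 ± 0.12 (adjusted p = 0.00162). Jun itself differed by -0.09, Jund by 0.00 and Myc by 0.25, and none of the 3 passed.

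Chemokines were measured with 20 genes, of which 5 were higher and 0 lower. Besides Cxcl2 these were Ccl3, which attracts monocytes, at 12.34, 12.24 and 12.42 with talc, against 11.55, 11.52 and 11.75 with TiO2 and a difference of 0.73 ± 0.10 (adjusted p = 0.000127), Ccl7 (0.77 ± 0.17, adjusted p = 0.00601), Ccl22 (0.58 ± 0.12, adjusted p = 0.00575) and Ccl9 (0.46 ± 0.10, adjusted p = 0.00473). The arrays of Ccl3 stood apart. The brightest probe set gave 0.49 for Ccl3 and -0.14, without a call, for Ccl22. The call of Ccl9 was lost in a fit of the 6 compared arrays alone. Ccl2, the main monocyte chemokine, had 5.68, 5.89 and 6.65 with talc, against 4.97, 5.29 and 5.87 with TiO2. Its arrays overlapped, and the difference of 0.70 ± 0.34 did not pass.

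Of 24 cytokine and IL-1 family genes, 7 were higher and 2 lower, and the list median was 0.02. The lower count was not far from the 5.35% of all genes. Csf1, the macrophage growth factor, had 6.75, 6.96 and 6.65 with talc, against 5.45, 5.67 and 5.82 with TiO2 and a difference of 1.14 ± 0.14 (adjusted p = 9.19e-05), or 1.91 with the brightest probe set. Osm, oncostatin M, had 7.66, 7.63 and 7.71 with talc, against 6.79, 6.83 and 6.99 with TiO2 and a difference of 0.80 ± 0.11 (adjusted p = 0.00021). Both cytokines were higher in every talc array. Il1b, interleukin-1 beta, had 4.67, 4.78 and 4.41 with talc, against 3.52, 3.98 and 3.76 with TiO2. The groups did not overlap, and the difference was 0.87 ± 0.18 (adjusted p = 0.00567), which was lost with the brightest probe set (0.95). Il1r2, the decoy receptor for interleukin-1, fell, at 7.92, 7.83 and 7.47 with talc, against 8.89, 8.82 and 8.73 with TiO2 and -1.08 ± 0.12 (adjusted p = 2.56e-05). Of 2 proteins that oppose interleukin-1, the secreted antagonist Il1rn was higher and the decoy receptor Il1r2 lower with talc. Il18 differed by -0.55 ± 0.15 (adjusted p = 0.0228), and its call was lost in a fit of the 6 compared arrays alone, with the brightest probe set (-0.57), with the median of probe sets (-0.40) and without talc replicate 2 or 3 or TiO2 replicate 1 or 3 (-0.53 to -0.46). Il6, Il10 and Il12b stood at -0.13, -0.21 and 0.01 and did not pass, nor did the inflammasome sensor Nlrp3 (-0.05).

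Of 20 prostaglandin and leukotriene genes, 5 were higher and 6 lower, with a median of 0.01. The higher genes were Ptgs2, the prostaglandin E receptor Ptger2 (0.97 ± 0.14, adjusted p = 0.000291), the prostacyclin receptor Ptgir (0.50 ± 0.11, adjusted p = 0.00744), and the prostaglandin E synthases Ptges3 (0.44 ± 0.11, adjusted p = 0.0145) and Ptges (0.57 ± 0.16, adjusted p = 0.0351). The call of Ptger2 was lost with the brightest probe set (0.56), that of Ptgir with the brightest probe set (0.38) and that of Ptges3 in a fit of the 6 compared arrays alone, with the brightest probe set (0.24) and without talc replicate 3 or TiO2 replicate 2 (0.34 to 0.41). With the brightest probe sets 1 member was higher, and 3 were without talc replicate 3. Alox5, the lipoxygenase that starts leukotriene synthesis, was lower, at 8.68, 8.72 and 8.66 with talc, against 9.39, 9.74 and 9.46 with TiO2 and a difference of -0.85 ± 0.10 (adjusted p = 6.41e-05). Ptgs1, the constitutive cyclooxygenase, had 9.02, 8.96 and 8.84 with talc, against 9.9, 9.76 and 9.66 with TiO2 and a difference of -0.83 ± 0.12 (adjusted p = 0.000247). Talc arrays lay below every TiO2 array in both genes. Cysltr1, a receptor for cysteinyl leukotrienes, fell by 0.93 ± 0.12 (adjusted p = 7.54e-05), or by 0.61 with the median of probe sets. Alox5ap, the partner protein of Alox5, differed by -0.40 ± 0.08 (adjusted p = 0.00478) and lost its call in a fit of the 6 compared arrays alone. Ltc4s, leukotriene C4 synthase (-0.81 ± 0.18, adjusted p = 0.00635), and Hpgds, a prostaglandin D synthase (-0.51 ± 0.13, adjusted p = 0.0205), completed the lower genes.

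Of 21 Toll-like receptors and adaptors, 3 were lower, against 5.35% of all genes, and 1 was higher, a share close to the 4.61% of all genes. The lower ones were Tlr8, Tlr7, the neighbouring sensor of single-stranded RNA, at 6.49, 6.71 and 6.33 with talc, against 7.39, 7.44 and 7.67 with TiO2 (-0.99 ± 0.12, adjusted p = 7.42e-05), and Tlr5, the receptor for flagellin, at 6.88, 6.86 and 6.84 with talc, against 7.9, 8.21 and 7.85 with TiO2 (-1.13 ± 0.12, adjusted p = 1.75e-05). All 3 receptors were lower in every talc array. The higher member was no receptor but the adaptor they share: Myd88 differed by 0.37 ± 0.11 (adjusted p = 0.0351) and lost its call in 7 of 14 alternatives. Tlr2 (0.31), Tlr4 (0.00) and Tlr9 (0.03) did not pass. In the refit of genes above the median level, 4 of 19 members were lower and 3 higher, against 1705 and 1410 of 11540 genes. Of 34 phagocytic, scavenger and lectin receptors, 4 were higher and 7 lower. Clec4n was joined by Clec4e, the lectin Mincle, at 11.7, 11.56 and 11.65 with talc, against 10.74, 10.6 and 10.9 with TiO2 (0.89 ± 0.09, adjusted p = 1.98e-05), and Clec4d, which pairs with it, at 10.23, 10.2 and 10.09 with talc, against 9.26, 8.93 and 9.25 with TiO2 (1.03 ± 0.10, adjusted p = 1.71e-05). These 3 lectin genes lie in 1 cluster and all rose without overlap. The scavenger receptor Msr1 rose by 0.64 ± 0.11 (adjusted p = 0.00127). Lower were the Fc receptors Fcgr2b (-0.64 ± 0.09, adjusted p = 0.000163) and Fcgr3 (-0.78 ± 0.14, adjusted p = 0.00202), the mannose receptor Mrc1 (-0.88 ± 0.14, adjusted p = 0.000782) and the scavenger receptor Stab1 (-0.55 ± 0.10, adjusted p = 0.00247). The brightest probe set gave -0.35 for Fcgr2b and -0.40 for Fcgr3, the median of probe sets -1.39 for Mrc1, and Stab1 lost its call in a fit of the 6 compared arrays alone and with the brightest probe set (-0.38). With the brightest probe sets 3 of the 7 passed as lower.

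Purinergic receptors respond to ATP and ADP released from stressed cells. Of 13 measured with the ectonucleotidases, 2 were higher and 4 lower. P2ry2, a receptor for ATP and UTP, had 8.03, 7.84 and 8.03 with talc, against 7.05, 7.29 and 7.17 with TiO2 (0.80 ± 0.10, adjusted p = 6.41e-05), and P2rx7, the ATP-gated channel upstream of the inflammasome, had 9.11, 9.17 and 9.29 with talc, against 8.43, 8.63 and 8.39 with TiO2 (0.71 ± 0.14, adjusted p = 0.00326). Beside P2ry12, a further ADP receptor was lower: P2ry13 had 5.21, 5.04 and 5.01 with talc, against 6.3, 6.02 and 6.34 with TiO2 (-1.13 ± 0.15, adjusted p = 0.000157), or -1.79 with the median of probe sets. The ectonucleotidase Entpd1, or CD39, which degrades ATP, had 7.04, 7.13 and 6.89 with talc, against 7.72, 7.69 and 7.78 with TiO2 (-0.71 ± 0.10, adjusted p = 0.000171). P2ry1 differed by -0.73 ± 0.22 (adjusted p = 0.0479) and lost its call in 7 of 14 alternatives. The groups did not overlap in P2ry2, P2rx7, P2ry12, P2ry13 and Entpd1, and they did in P2ry1, where 1 TiO2 array (4.73) lay below 1 talc array (5.0).

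Dual-specificity phosphatases switch MAP kinases off. Of 25 MAP kinase and phosphatase genes, 5 were higher and 5 lower. Dusp5, which acts on ERK in the nucleus, rose, at 8.06, 8.02 and 8.09 with talc, against 6.96, 7.14 and 7.32 with TiO2 (0.91 ± 0.13, adjusted p = 0.000166), and Dusp6, which acts on ERK in the cytoplasm, fell, at 8.62, 8.61 and 8.51 with talc, against 9.26, 9.27 and 9.27 with TiO2 (-0.69 ± 0.09, adjusted p = 7.78e-05). The arrays of Dusp6 in TiO2 cells were nearly equal, and talc arrays were clear of them in both genes. Dusp1 (0.63 ± 0.14), Dusp4 (0.45 ± 0.09) and Dusp16 (0.45 ± 0.10) were also higher, and each of the 3 lost its call in 1 alternative, in a fit of the 6 compared arrays alone. Dusp14 (0.40) was the fifth rise. Lower beside Map2k6 was Map3k5, or ASK1, an upstream kinase of p38 and JNK (-0.61 ± 0.10, adjusted p = 0.000559), whose call was lost with the brightest probe set (-0.58) and with the median of probe sets (-0.53), and Dusp7 (-0.41 ± 0.10, adjusted p = 0.0177), lost in 6 of 14 alternatives. The fifth fall was in p38 itself, Mapk14 (-0.41 ± 0.10, adjusted p = 0.0183). In the list, 3 members were lower with the brightest probe sets or without talc replicate 2. Among the 17 RGS proteins and small GTPase regulators, 5 were higher and 1 lower. Beside Rgs1, the higher members included Rgs2 (0.59 ± 0.11, adjusted p = 0.00185), Rhob (0.45 ± 0.09, adjusted p = 0.00373) and Gem (0.39), and Rgs18 was lower (-0.66 ± 0.13, adjusted p = 0.00322). The call of Rhob was lost in a fit of the 6 compared arrays alone, with the brightest probe set (0.44) and with the median of probe sets (0.47); with the brightest probe sets 2 members were higher.

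Of 27 macrophage identity factors and CSF receptors, 3 were higher and 1, Maf, lower, against 4.61% and 5.35% of all genes. The lower count lay near the share of all genes. Csf2rb2, a beta subunit of the interleukin-3 receptor in mice, had 8.91, 8.92 and 8.81 with talc, against 7.55, 7.88 and 7.87 with TiO2 (1.12 ± 0.19, adjusted p = 0.000934), and Ccr1, a receptor for Ccl3, had 4.83, 4.29 and 4.08 with talc, against 3.08, 3.49 and 3.65 with TiO2 (0.99 ± 0.20, adjusted p = 0.0043). Both rose without overlap. Among genes above the median level 3 of 24 members were higher and 4 lower, near the shares there (1410 and 1705 of 11540 genes). With the brightest probe sets 5 were higher, and 3 were lower without TiO2 replicate 1. The liver X receptor Nr1h3 differed by 0.55 ± 0.15 (adjusted p = 0.0243), but by -0.17 with the brightest probe set, and lost its call in 6 of 14 alternatives. Spi1, the master regulator of the lineage (0.22), and Csf1r (-0.11) did not pass. Of 21 MHC and costimulation genes 2 were higher and 5 lower. Cd274, or PD-L1, rose, at 7.56, 7.31 and 7.35 with talc, against 6.03, 6.18 and 6.49 with TiO2 (1.18 ± 0.17, adjusted p = 0.000319), again without overlap. Cd80 differed by 0.99 ± 0.24 (adjusted p = 0.0134) and lost its call with the brightest probe set (0.59), with the median of probe sets (0.97) and without talc replicate 3 or TiO2 replicate 1 or 2 (0.83 to 0.92). The lower genes were led by Tnfsf13b, the immunoproteasome subunit Psmb9 (-0.60 ± 0.12, adjusted p = 0.00305) and the ligand Icosl (-0.41 ± 0.10, adjusted p = 0.0174). The call of Psmb9 was lost with the median of probe sets (-0.35), and that of Icosl in a fit of the 6 compared arrays alone and without talc replicate 3 or TiO2 replicate 2 (-0.35 to -0.33); with 1 array left out, 2 to 4 members were lower. Type I interferon response genes gave 0 higher and 4 lower of 36: Ifit2 (-0.69 ± 0.18, adjusted p = 0.0247), Irf1 (-0.54 ± 0.11, adjusted p = 0.00357), Stat2 (-0.49 ± 0.11, adjusted p = 0.0061) and Ifih1 (-0.41 ± 0.12, adjusted p = 0.0413). Their calls were lost in 5 of 14, 2 of 14, 2 of 14 and 8 of 14 alternatives. Of the list, 1 gene was lower with the brightest probe sets and 2 without talc replicate 1 or 3 or TiO2 replicate 3. Among genes above the median level 4 of 24 members were lower, near the share there (1705 of 11540 genes).

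Growth factor and matrix genes held both the largest fall, Tgfbi, and a gene among the 14 largest rises, Pgf. Of 32 members 9 were higher and 3 lower, or 4 higher with the brightest probe sets. Plaur, the receptor of urokinase, had 9.94, 9.89 and 10.02 with talc, against 9.29, 9.43 and 9.49 with TiO2 (0.55 ± 0.11, adjusted p = 0.00358), while its ligand Plau had 10.66, 10.55 and 10.52 with talc, against 11.07, 10.96 and 11.02 with TiO2 (-0.44 ± 0.08, adjusted p = 0.00253). Receptor and ligand lay on opposite sides, each without overlap. The call of Plau was lost in a fit of the 6 compared arrays alone and with the median of probe sets (-0.38). Pdgfb, a platelet-derived growth factor chain, rose by 0.53 ± 0.10 (adjusted p = 0.00249) and lost its call with the brightest probe set (0.51). Spp1, osteopontin, rose by 0.57 ± 0.11 (adjusted p = 0.00244) and lost its call in a fit of the 6 compared arrays alone and with the brightest probe set (0.24). Tgfb3 differed by -0.40 ± 0.12 (adjusted p = 0.0469) and lost its call in 8 of 14 alternatives. Tgfb1 (-0.04), Vegfa (0.27) and the macrophage elastase Mmp12 (-0.01) did not pass.

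Of 49 mitotic spindle and checkpoint genes, 46 were lower (93.9%) and 0 higher, against 5.35% of all genes lower, and the list median was -0.70. Its members ranged from -1.13 (Birc5, survivin) to -0.11 (Bub3). In the refit of genes above the median level, 47 of 49 were lower, against 1705 of 11540 genes. The lower count was 34 with the brightest probe sets and 43 to 47 with 1 array left out. In single arrays the list median relative to vehicle was -0.78, -0.71 and -0.83 with talc, against 0.02, -0.13 and 0.00 with TiO2. All talc arrays lay far below all TiO2 arrays. Ncapd2, a condensin subunit that compacts chromosomes, had 8.44, 8.59 and 8.42 with talc, against 9.6, 9.64 and 9.55 with TiO2 (-1.11 ± 0.09, adjusted p = 2.03e-06). Ccnb2, cyclin B2, had 9.34, 9.52 and 9.36 with talc, against 10.3, 10.28 and 10.42 with TiO2 (-0.93 ± 0.09, adjusted p = 8.25e-06). The kinesin Kif15, a spindle motor, had 7.32, 7.46 and 7.26 with talc, against 8.56, 8.29 and 8.52 with TiO2 (-1.11 ± 0.11, adjusted p = 1.71e-05), and the spindle checkpoint kinase Bub1b had 8.11, 8.18 and 7.93 with talc, against 9.03, 9.06 and 9.0 with TiO2 (-0.95 ± 0.10, adjusted p = 1.71e-05). In these 4 genes 0 talc arrays reached the lowest TiO2 array. The 3 members that did not pass were Bub3, Tpx2 (-0.24) and Ncapg (-0.45).

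Of 38 genes of DNA replication and nucleotide supply, 29 were lower and 0 higher, with a median of -0.57. The lower count was 26 with the brightest probe sets. In single arrays the median was -0.62, -0.54 and -0.53 relative to vehicle with talc, against 0.00, 0.02 and 0.06 with TiO2, without overlap. Tk1, thymidine kinase, had 7.46, 7.82 and 7.49 with talc, against 8.58, 8.89 and 8.72 with TiO2 (-1.14 ± 0.13, adjusted p = 2.73e-05). Rrm2, a subunit of ribonucleotide reductase, had 7.87, 7.83 and 8.01 with talc, against 8.96, 8.6 and 9.03 with TiO2 (-0.96 ± 0.12, adjusted p = 7.55e-05). Mcm5, of the replicative helicase, had 8.95, 9.03 and 9.05 with talc, against 9.64, 9.87 and 9.74 with TiO2 (-0.74 ± 0.09, adjusted p = 7.22e-05), and Pole, a polymerase of the leading strand, differed by -0.82 ± 0.10 (adjusted p = 7.95e-05). These genes were lower in every talc array. The clamp Pcna differed by -0.15 and did not pass. Of 23 homologous recombination and Fanconi genes, 19 were lower and 0 higher, with a median of -0.58. Without TiO2 replicate 3, 12 were lower, and 14 were with the brightest probe sets. Brca1 had 6.39, 6.72 and 6.29 with talc, against 7.63, 7.49 and 7.73 with TiO2 (-1.15 ± 0.11, adjusted p = 1.35e-05), its helicase partner Brip1 differed by -0.98 ± 0.11 (adjusted p = 4.55e-05), and the Fanconi pair Fanci and Fancd2 by -1.07 ± 0.13 (adjusted p = 5.17e-05) and -0.81 ± 0.10 (adjusted p = 7.1e-05). In Brca1 the nearest arrays of the groups were still well apart.

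Of 28 cyclins, CDK inhibitors and E2F factors, 13 were lower and 4 higher, and the median was -0.36. Ccnd1, cyclin D1, had 10.17, 10.2 and 10.02 with talc, against 10.93, 10.76 and 10.87 with TiO2 (-0.72 ± 0.09, adjusted p = 6.41e-05), and the repressor E2f7 had 5.87, 5.99 and 5.88 with talc, against 6.71, 6.82 and 6.75 with TiO2 (-0.85 ± 0.12, adjusted p = 0.00021). Both were lower in every talc array, as was Cdkn2c. Ccne2, cyclin E2, differed by -0.61 ± 0.10 (adjusted p = 0.000921) and lost its call with the median of probe sets (-0.41). The higher members were Ccnd2, cyclin D2, at 7.78, 7.93 and 8.02 with talc, against 7.08, 7.17 and 7.55 with TiO2 (0.64 ± 0.11, adjusted p = 0.00125), Cdk6 (0.46 ± 0.09, adjusted p = 0.00364), Cdkn1a, which encodes p21 (0.50 ± 0.14, adjusted p = 0.0354), and Cdkn2b, which encodes p15 (0.39 ± 0.12, adjusted p = 0.0418). Cyclin D1 and cyclin D2 lay on opposite sides. With array medians subtracted, or without talc replicate 2 or 3 or TiO2 replicate 1 or 3, 2 members were higher, and 1 was with the brightest probe sets. The call of Ccnd2 was lost with the brightest probe set (0.52), that of Cdk6 in a fit of the 6 compared arrays alone and with the brightest probe set (0.34), that of Cdkn1a in 7 of 14 alternatives and that of Cdkn2b in 9 of 14.

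Promoter windows of 3 of these genes are shown because cell cycle genes are known to share promoter letters: the mitotic activator Cdc20 at chr4:118437294-118437593 (- strand), the kinesin Kif23 at chr9:61946750-61947049 (- strand), and Mcm5 at chr8:75109259-75109558 (+ strand), all GRCm38.p6 from RefSeq and chosen after their values were seen. Cdc20 had 7.77, 7.5 and 7.54 with talc, against 8.22, 8.25 and 8.14 with TiO2 (-0.60 ± 0.11, adjusted p = 0.00153), and Kif23 had 8.59, 8.42 and 8.24 with talc, against 9.5, 9.31 and 9.38 with TiO2 (-0.98 ± 0.11, adjusted p = 2.8e-05). Capitals mark the same motifs as above: in Cdc20 a TTTGAA match between CCAAT matches, in Kif23 a CCAAT match on the other strand followed by TTTGAA, and in Mcm5 E2F matches that overlap each other, CCAAT matches and TGACGTCA. Mcm5 was taken from replication genes whose window held an E2F match, so that match is part of the choice and not a result. Cdc20 and Kif23 each also hold a match to the NF-kB letters.
Cdc20: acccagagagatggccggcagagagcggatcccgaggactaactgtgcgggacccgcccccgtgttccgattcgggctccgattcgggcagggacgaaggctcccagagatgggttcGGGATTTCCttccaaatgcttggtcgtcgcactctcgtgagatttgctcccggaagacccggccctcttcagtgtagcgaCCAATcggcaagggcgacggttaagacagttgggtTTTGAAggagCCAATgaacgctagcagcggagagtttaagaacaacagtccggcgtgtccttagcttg
Kif23: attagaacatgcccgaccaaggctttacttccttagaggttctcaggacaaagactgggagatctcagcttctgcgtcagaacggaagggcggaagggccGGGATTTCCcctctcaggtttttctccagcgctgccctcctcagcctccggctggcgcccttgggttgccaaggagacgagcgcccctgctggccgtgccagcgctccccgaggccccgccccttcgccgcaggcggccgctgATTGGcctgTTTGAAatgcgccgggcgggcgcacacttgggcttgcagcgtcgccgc
Mcm5: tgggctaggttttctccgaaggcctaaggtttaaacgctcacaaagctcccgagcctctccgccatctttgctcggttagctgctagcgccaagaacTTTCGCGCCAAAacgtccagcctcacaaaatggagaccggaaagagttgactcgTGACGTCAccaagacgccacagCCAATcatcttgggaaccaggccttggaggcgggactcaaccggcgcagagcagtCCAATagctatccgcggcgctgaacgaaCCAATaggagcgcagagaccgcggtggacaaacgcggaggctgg

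TTTGAA occurred in 32 of the 41 mitosis genes that had a window (78.0%), against 5466 of 27025 genes (20.2%), and CCAAT in 30 of them (73.2%), against 11096 (41.1%). Both were found in 27 of the 41 (65.9%), against 8.97% of all genes. In the replication list TTTGAA occurred in 4 of 32 windows (12.5%), while the E2F letters occurred in 15 (46.9%), against 1602 of all genes (5.93%). CCAAT occurred in 19 of the 32 replication windows (59.4%). The E2F letters also occurred in 8 of 41 mitosis windows (19.5%) and 5 of 35 ribosome biogenesis windows (14.3%). In the NF-kB list they occurred in 2 of 18 (11.1%) and in the immediate early list in 1 of 19 (5.26%). No test was made of these shares, and the letters do not show which factor was bound.

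Ribosome biogenesis was the list with the most rises. Of 40 nucleolar and ribosome assembly genes, 31 were higher and 0 lower, with a median of 0.61 and members from -0.07 (Polr1c) to 1.38 (Rrp12). The higher count was 22 with the brightest probe sets and 26 to 29 with 1 array left out. In single arrays the median relative to vehicle was 0.63, 0.61 and 0.76 with talc, against -0.04, -0.11 and 0.07 with TiO2. Every talc array stood above every TiO2 array. Nop2, a methyltransferase of ribosomal RNA, had 9.94, 10.01 and 10.2 with talc, against 8.73, 8.92 and 8.81 with TiO2 (1.23 ± 0.10, adjusted p = 3.31e-06). Tsr1, needed for the small subunit, had 8.28, 8.49 and 8.64 with talc, against 7.22, 6.97 and 7.25 with TiO2 (1.33 ± 0.13, adjusted p = 1.71e-05), or 0.57 with the brightest probe set, and Wdr43, a factor of the small subunit processome, had 9.98, 9.79 and 10.04 with talc, against 8.89, 8.45 and 8.96 with TiO2 (1.17 ± 0.13, adjusted p = 2.86e-05). All 3 were free of overlap. The nucleolar proteins Npm1 (-0.04), Ncl (0.11) and Fbl (0.36) did not pass. Of 17 small nucleolar RNA host genes, 4 were higher and 0 lower. Snhg12 had 7.48, 7.18 and 7.38 with talc, against 5.94, 5.95 and 6.27 with TiO2 (1.29 ± 0.16, adjusted p = 8.62e-05) and Snhg1 differed by 0.81 ± 0.15 (adjusted p = 0.00247). Snhg17 differed by 0.61 ± 0.12 (adjusted p = 0.00262), but by -0.41 with the brightest probe set. The other host genes, Gas5 (0.28) among them, did not pass.

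**Figure D2:**
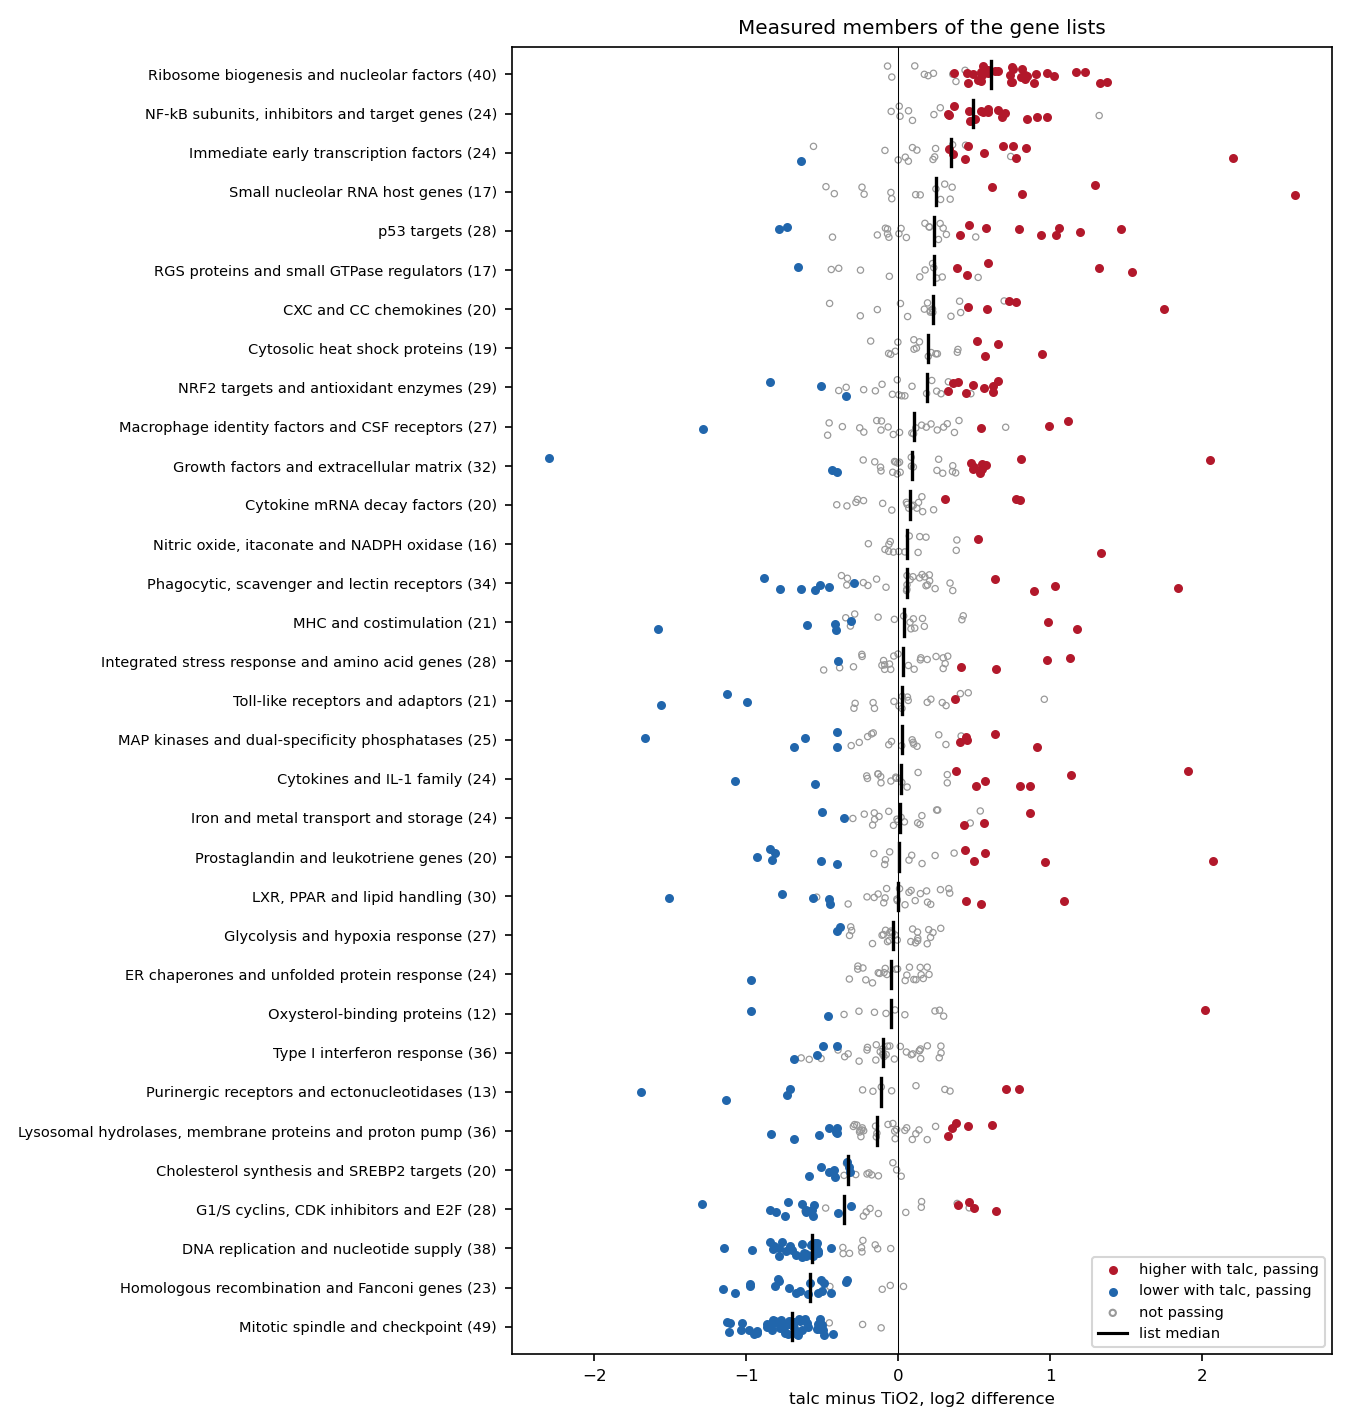
Talc minus TiO2 log2 difference (horizontal axis) of every measured member of 33 gene lists, ordered by list median, with the number measured in brackets. Filled points passed at an adjusted p under 0.05 (red higher, blue lower with talc), open points did not, and the black bar is the list median. Ribosome biogenesis (median 0.61) and NF-kB (0.49) stand at the top and mitosis (-0.70) at the bottom, while most lists hold points on both sides of 0.

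**Figure D3:**
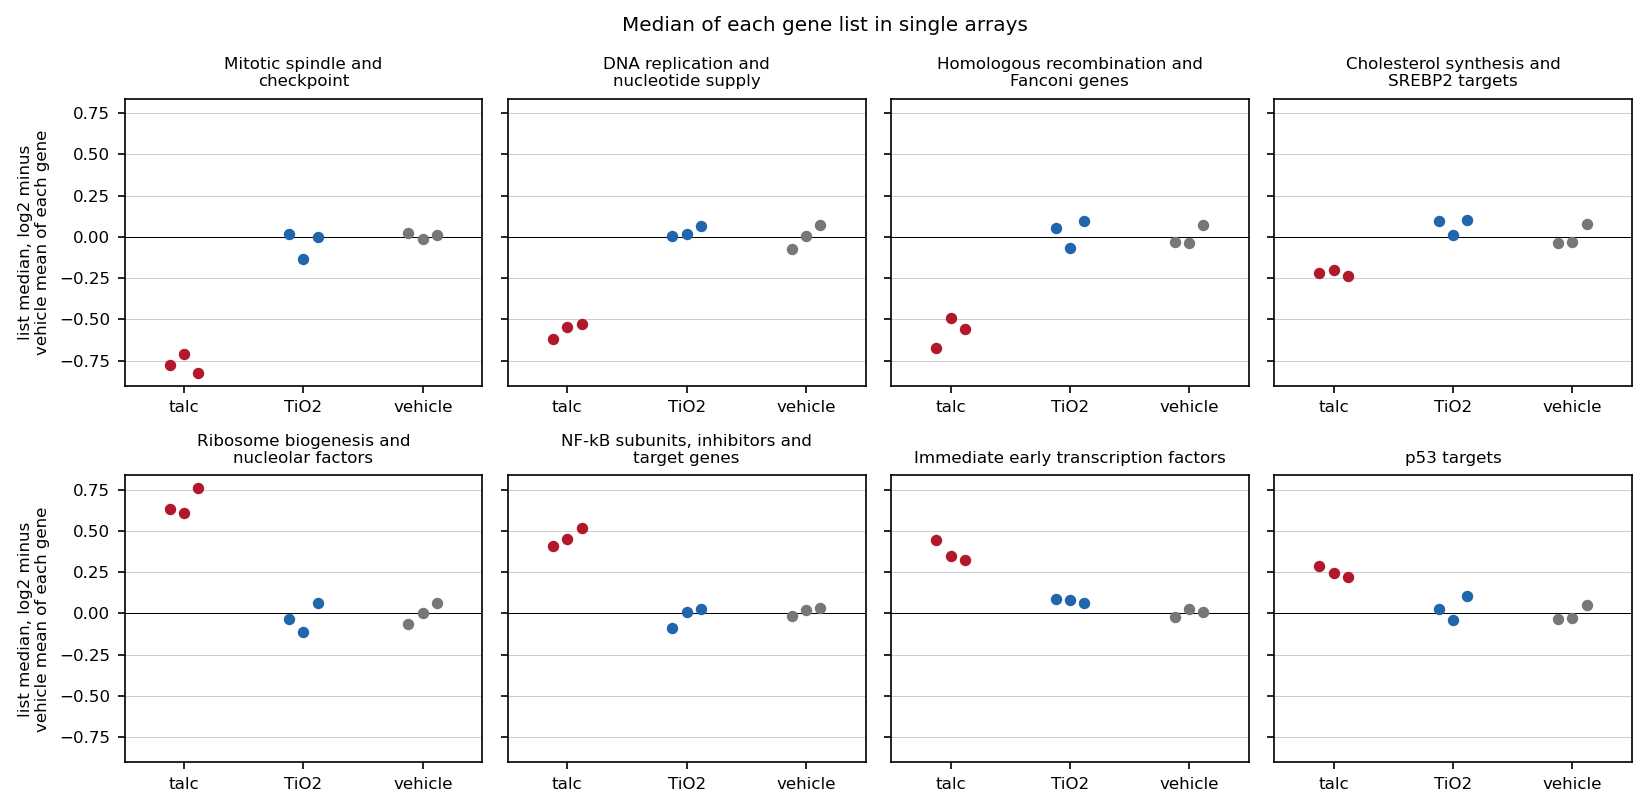
Median of 8 gene lists in each of the 3 talc, 3 TiO2 and 3 vehicle arrays (vertical axis: log2 intensity minus the gene's vehicle mean, median over the list). Each point is 1 array. In all 8 panels the talc points lie apart from the TiO2 and vehicle points, at -0.83 to -0.71 for mitosis and 0.61 to 0.76 for ribosome biogenesis.

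Of 28 p53 targets, 9 were higher and 2 lower, with a median of 0.23. Mdm2, the ligase that degrades p53, had 9.08, 9.29 and 9.41 with talc, against 7.79, 8.03 and 8.37 with TiO2 (1.2 ± 0.15, adjusted p = 9.32e-05). Aen, a p53-induced nuclease, had 6.76, 6.83 and 6.61 with talc, against 5.7, 5.73 and 5.61 with TiO2 (1.05 ± 0.12, adjusted p = 2.58e-05), and the kinase Plk2 had 11.69, 11.64 and 11.77 with talc, against 10.73, 10.66 and 10.91 with TiO2 (0.94 ± 0.09, adjusted p = 1.14e-05), or 0.61 with the brightest probe set. Each was higher in every talc array, as was Gadd45b. Lower were Ddb2, a DNA damage sensor (-0.78 ± 0.16, adjusted p = 0.00406), and Sesn3, a sestrin (-0.73 ± 0.14, adjusted p = 0.00223). The call of Ddb2 was lost with the brightest probe set (-0.20), and that of Sesn3 with the brightest probe set (-0.45) and with the median of probe sets (-0.58). The pro-apoptotic target Bbc3 (-0.06) did not pass.

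Oxidative stress genes controlled by NRF2 had 9 higher and 3 lower members of 29, with a median of 0.19. The number higher was 3 with array medians subtracted, 5 with the brightest probe sets, and 3 to 6 with 1 array left out: 3 without talc replicate 3 or TiO2 replicate 1, 4 without talc replicate 1 or 2, and 5 without TiO2 replicate 2. The number lower was 1 in each of those 6 fits. Sqstm1, the autophagy receptor p62, had 11.39, 11.32 and 11.36 with talc, against 10.72, 10.67 and 10.71 with TiO2 (0.66 ± 0.08, adjusted p = 6.79e-05). Gclm, of glutathione synthesis, had 8.55, 8.49 and 8.5 with talc, against 7.87, 7.79 and 8.0 with TiO2 (0.63 ± 0.09, adjusted p = 0.000231), and thioredoxin reductase Txnrd1 had 9.68, 9.67 and 9.78 with talc, against 9.2, 8.95 and 9.11 with TiO2 (0.62 ± 0.09, adjusted p = 0.000296). The 3 genes were tight within groups and did not overlap. Hmox1, heme oxygenase, differed by 0.39 ± 0.11 (adjusted p = 0.0269) and lost its call in 7 of 14 alternatives. Lower were Sod1 (-0.51 ± 0.12, adjusted p = 0.0123), Gstm1 (-0.35 ± 0.10, adjusted p = 0.028) and Gstp1 (-0.84 ± 0.24, adjusted p = 0.0319). The call of Sod1 was lost without talc replicate 3 or TiO2 replicate 3 (-0.49 to -0.45), those of Gstm1 and Gstp1 in 7 of 14 and 8 of 14 alternatives, and Gstp1 read 0.23 with its brightest probe set.

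The integrated stress response list had 4 higher and 1 lower of 28, with a median of 0.03. Its lower count lay near the 5.35% of all genes. Ddit3, or CHOP, had 8.27, 8.15 and 8.42 with talc, against 7.08, 7.16 and 7.2 with TiO2 (1.13 ± 0.12, adjusted p = 1.76e-05), and Ppp1r15a, or GADD34, which restores translation, had 7.82, 7.84 and 7.91 with talc, against 6.9, 6.95 and 6.79 with TiO2 (0.98 ± 0.11, adjusted p = 3.74e-05). Both rose without overlap. Wars, a transfer RNA synthetase, rose by 0.65 ± 0.10 (adjusted p = 0.000379) and lost its call with the brightest probe set (0.58). Nupr1 (0.41 ± 0.10) and Slc7a5 (-0.39 ± 0.11), the fourth higher and the only lower member, lost theirs in 4 of 14 and 6 of 14 alternatives, and 2 members were higher with the brightest probe sets. Of 24 endoplasmic reticulum chaperones and unfolded protein response genes 0 were higher and 1 lower, Derl3 (-0.97 ± 0.19, adjusted p = 0.00347), whose call was lost with the brightest probe set (-0.24). That lower count, too, lay near the 5.35% of all genes. Of 19 cytosolic heat shock proteins 4 were higher and 0 lower. Hsph1, a large chaperone, had 7.46, 7.64 and 7.67 with talc, against 6.5, 6.59 and 6.84 with TiO2 (0.94 ± 0.13, adjusted p = 0.000166), and the cochaperone Bag3 had 8.63, 8.64 and 8.77 with talc, against 7.9, 8.06 and 8.11 with TiO2 (0.66 ± 0.10, adjusted p = 0.000432). Talc arrays were above TiO2 arrays throughout. Hspa4 (0.57 ± 0.11, adjusted p = 0.00275) and Chordc1 (0.52 ± 0.13, adjusted p = 0.0198) lost their calls in 3 of 14 and 8 of 14 alternatives.

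Of 20 genes of cholesterol synthesis and SREBP2 targets, 8 were lower and 0 higher, with a median of -0.33 and array medians relative to vehicle of -0.22, -0.20 and -0.24 with talc, against 0.10, 0.01 and 0.10 with TiO2. The arrays did not overlap. Tm7sf2, a sterol reductase, had 7.21, 7.15 and 7.26 with talc, against 7.78, 7.85 and 7.76 with TiO2 (-0.59 ± 0.11, adjusted p = 0.00261). Insig1, the sterol sensor that holds SREBP in the endoplasmic reticulum, had 10.51, 10.6 and 10.51 with talc, against 11.15, 10.84 and 11.15 with TiO2 (-0.51 ± 0.10, adjusted p = 0.00225), and lost its call in a fit of the 6 compared arrays alone. Tm7sf2 and Insig1 were lower in every talc array. Pmvk (-0.46 ± 0.11) and Srebf2, the factor itself (-0.34 ± 0.09), lost their calls in 3 of 14 and 6 of 14 alternatives. Of the list, 3 passed with the brightest probe sets or without talc replicate 3, 4 without talc replicate 1 or TiO2 replicate 2 or 3, and 5 without talc replicate 2. Of 30 LXR, PPAR and lipid handling genes, 3 were higher and 5 lower. Hilpda, a lipid droplet protein, had 8.37, 8.52 and 8.54 with talc, against 7.53, 7.4 and 7.24 with TiO2 (1.09 ± 0.13, adjusted p = 4.01e-05), without overlap. The cholesterol exporter Abcg1 (0.44 ± 0.11, adjusted p = 0.0114) lost its call in a fit of the 6 compared arrays alone, with the median of probe sets (0.44) and without talc replicate 3 or TiO2 replicate 1 (0.35 to 0.38). Beside Abcd2, the lower genes were Cpt1a, the gate of mitochondrial fatty acid oxidation (-0.77 ± 0.15, adjusted p = 0.00364), the oxysterol receptor Gpr183 (-0.45 ± 0.09, adjusted p = 0.0042), Angptl4 (-0.56 ± 0.13, adjusted p = 0.00879) and Pltp (-0.45). With the brightest probe sets 2 were lower, and 1 was higher without talc replicate 3 or TiO2 replicate 1. The call of Cpt1a was lost with the brightest probe set (-0.79), that of Gpr183 in a fit of the 6 compared arrays alone and with the median of probe sets (-0.45) and that of Angptl4 with the brightest probe set (-0.77), with the median of probe sets (-0.62) and without talc replicate 2 (-0.47). Of 12 oxysterol-binding proteins, Osbp2 was higher and Osbpl3, at 6.31, 6.32 and 6.25 with talc, against 7.22, 7.34 and 7.22 with TiO2 (-0.97 ± 0.10, adjusted p = 2.48e-05), and Osbpl10 (-0.46 ± 0.11, adjusted p = 0.0117) were lower. Osbpl3 did not overlap between groups, and the call of Osbpl10 was lost in a fit of the 6 compared arrays alone, with the brightest probe set (-0.71) and without TiO2 replicate 2 (-0.38).

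Of 36 lysosomal hydrolases, membrane proteins and proton pump subunits, 5 were higher and 7 lower, with a median of -0.14. The hydrolases Arsb, at 9.58, 9.66 and 9.4 with talc, against 10.3, 10.57 and 10.28 with TiO2 (-0.84 ± 0.10, adjusted p = 7.34e-05), and Lgmn, a protease, at 10.09, 10.19 and 9.98 with talc, against 10.68, 10.84 and 10.79 with TiO2 (-0.69 ± 0.09, adjusted p = 0.000183), were lower without overlap. The brightest probe set gave -0.35 without a call for Arsb and -0.45 for Lgmn. Naglu (-0.52 ± 0.10, adjusted p = 0.00358) and Hexa (-0.41 ± 0.09, adjusted p = 0.00497) were lower too, with calls lost in 3 of 14 and 2 of 14 alternatives. Atp6v1h, a proton pump subunit, was higher (0.61 ± 0.13, adjusted p = 0.00507) and lost its call with the median of probe sets (0.51). Of the other higher genes, Tfe3 (0.38 ± 0.10), Atp6v1c1 (0.35 ± 0.10) and Gla (0.33 ± 0.10) lost theirs in 7 of 14, 9 of 14 and 10 of 14 alternatives. With array medians subtracted or without TiO2 replicate 2 the higher count was 2, and with the brightest probe sets or without any other 1 array but TiO2 replicate 3 it was 1. The lower count was 3 with the brightest probe sets. Among genes above the median level 4 of 34 members were higher, near the share there (1410 of 11540 genes).

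Iron and metal genes gave 3 higher and 2 lower of 24, the lower count not far from the 5.35% of all genes. Among genes above the median level 3 of 21 members were higher, near the share there (1410 of 11540 genes). Tfrc, the transferrin receptor, had 7.33, 7.26 and 7.43 with talc, against 6.59, 6.14 and 6.67 with TiO2 (0.87 ± 0.14, adjusted p = 0.000745), all talc arrays above all TiO2 arrays. The metal-responsive factor Mtf1 (0.56 ± 0.12, adjusted p = 0.00502) lost its call in a fit of the 6 compared arrays alone and with the median of probe sets (0.19), and the copper pump Atp7a (0.44 ± 0.12, adjusted p = 0.0343) in 9 of 14 alternatives. The metallothioneins were lower. Mt2 differed by -0.50 ± 0.12 (adjusted p = 0.0139) and Mt1 by -0.36 ± 0.09 (adjusted p = 0.017), and both lost their calls without talc replicate 1 (-0.41 and -0.30) and in 3 and 2 other alternatives. Of 16 nitric oxide, itaconate and NADPH oxidase genes, 2 were higher. Acod1, which makes itaconate, had 5.0, 5.4 and 5.27 with talc, against 3.71, 3.78 and 4.18 with TiO2 (1.33 ± 0.19, adjusted p = 0.000255), and lost its call with the brightest probe set (0.65). Cybb, the catalytic subunit of the phagocyte oxidase, had 11.48, 11.49 and 11.51 with talc, against 10.91, 10.98 and 11.03 with TiO2 (0.52 ± 0.09, adjusted p = 0.000809). The groups were apart in both. The nitric oxide synthase Nos2 (-0.09) did not pass. Factors of cytokine mRNA decay gave 3 higher of 20, against 4.61% of all genes. In the refit of genes above the median level 3 of 20 were higher too, near the share there (1410 of 11540 genes). Zc3h12c, a relative of regnase-1, had 7.29, 6.94 and 7.33 with talc, against 6.33, 6.32 and 6.51 with TiO2 (0.80 ± 0.13, adjusted p = 0.000724), without overlap. Zfp36, or tristetraprolin, had 8.31, 8.49 and 8.41 with talc, against 7.4, 7.49 and 8.0 with TiO2 (0.78 ± 0.20, adjusted p = 0.0199), and lost its call without talc replicate 2 or 3 or TiO2 replicate 1 or 2 (0.66 to 0.78). Elavl1 (0.30 ± 0.09) lost its call in 9 of 14 alternatives, and 1 member of the list was higher without talc replicate 3 or TiO2 replicate 2. Of 27 glycolysis and hypoxia genes 0 were higher and 2 lower, Pfkl (-0.38 ± 0.09, adjusted p = 0.00888) and Ankrd37 (-0.40 ± 0.12, adjusted p = 0.0451), with calls lost in 3 of 14 and 7 of 14 alternatives. This lower count was not far from the 5.35% of all genes.

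The vehicle arrays place each particle against cells without one. They are shared by both of the following comparisons, which also share their particle arrays with the one above, so that values are given side by side only. Talc differed from vehicle in 1955 genes (8.46%), 910 higher (3.94%) and 1045 lower (4.52%), and TiO2 in 0 of 23102 (0%) by limma, with 1886 (8.16%) at an unadjusted p under 0.05. Snhg15 differed from vehicle by 2.66 with talc and 0.05 with TiO2, Fos by 2.31 and 0.11, Ptgs2 by 1.88 and -0.19, Osbp2 by 1.96 and -0.06, and Cxcl2 by 1.98 and 0.24. For these genes the TiO2 value was small beside the talc value. In further genes the TiO2 difference from vehicle was larger, without passing. Tgfbi differed from vehicle by -2.74 with talc and -0.44 with TiO2, Tlr8 by -2.09 and -0.53, and Mrc1 by -1.62 and -0.74. Cd80 stood at 0.33 with talc and -0.66 with TiO2, and Gpr183 at 0.17 and 0.62. In Cd80 and Gpr183 the TiO2 value was the larger in size. The median of the mitosis list was -0.79 against vehicle with talc and -0.04 with TiO2, that of ribosome biogenesis 0.70 and -0.02, and that of the NF-kB list 0.48 and -0.05.

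The same 2 particles were compared in arrays with estradiol, which share 0 arrays with the first comparison, although all 18 share 1 estimate of the spread. Talc plus estradiol differed from TiO2 plus estradiol in 2201 genes (9.53%), with 1539 higher (6.66%) and 662 lower (2.87%). This balance turned with the processing: 887 were higher and 851 lower after quantile normalization, 2306 and 435 with array medians subtracted, and 484 and 764 with the brightest probe sets. Of the 1064 genes higher without estradiol, 670 (63.0%) were also higher with it, which is 43.5% of the 1539. Of the 1237 lower genes, 393 (31.8%) were also lower with it, 59.4% of the 662, and 9 genes passed in opposite directions. Genes higher without estradiol had a median difference of 0.48 with estradiol and 0.53 without. For the lower genes these medians were -0.26 and -0.56. Both sets were chosen by their values without estradiol, and such a choice alone can give smaller differences in the other arm. Over all 23102 genes the differences with and without estradiol were correlated with Pearson's r = 0.37 and a Spearman coefficient of 0.25, and with r = 0.66 over the 11540 genes above the median level. Genes are not independent replicates, and each arm's values share the arrays' processing.

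The leading genes stood as follows with estradiol. Snhg15 differed by 2.97, Fos by 1.93, Ptgs2 by 2.13, Pgf by 2.02, Osbp2 by 1.7 and Cxcl2 by 1.66 (adjusted p between 3.04e-08 and 3.8e-05). Il1rn stood at 1.22, against 1.91 without estradiol, and Clec4n at 1.95. Among the falls, Tgfbi differed by -2.07 (adjusted p = 8.11e-09), close to its value without estradiol. P2ry12 stood at -0.76 with estradiol and -1.69 without, Tlr8 at -0.69 and -1.56, Mcam at -0.79 and -1.42, and Fanci at -0.29 and -1.07. These 4 falls were smaller in the estradiol arrays, though none of these differences passed as an interaction. The 4 genes were named for their values without estradiol, and such a choice alone can give smaller values in the other arm. In the lists, 34 of 49 mitosis genes were lower with estradiol and 46 without, 17 and 29 of the 38 replication genes, 10 and 19 of the 23 recombination genes, and 1 and 8 of the 20 cholesterol genes. For the rises, the counts were 33 and 31 of the 40 ribosome biogenesis genes and 16 and 16 of the 24 NF-kB genes. Over the 11540 genes above the median level, the median difference was 0.085 with estradiol and 0 without. All 49 mitosis, 38 replication, 20 cholesterol and 40 ribosome biogenesis genes lie above that level. The part of this offset in the list counts was not tested. Whether the particle difference itself depended on estradiol was tested as an interaction. It passed in 0 genes (0%) by limma, with 3206 (13.9%) at an unadjusted p under 0.05, and no gene is thereby shown to differ between the arms. The 5 genes with the smallest interaction p were Cfap58, Pirt, D630033O11Rik, Sertad3 and Olfr467, each with an adjusted p of 0.0987, a value that Cdkn2b shared. Sertad3, a regulator of transcription, differed by 0.45 with estradiol and -0.51 without, and Pirt by -0.73 and 0.90. Without estradiol the calls of Sertad3, Pirt, Cfap58 and D630033O11Rik were lost in 3 of 14, 2 of 13, 2 of 13 and 10 of 13 alternatives, and Olfr467 (adjusted p = 0.267) had no call. Cdkn2b was another of the 9 genes with opposite calls, at -0.55 with estradiol and 0.39 without.

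**Figure D4:**
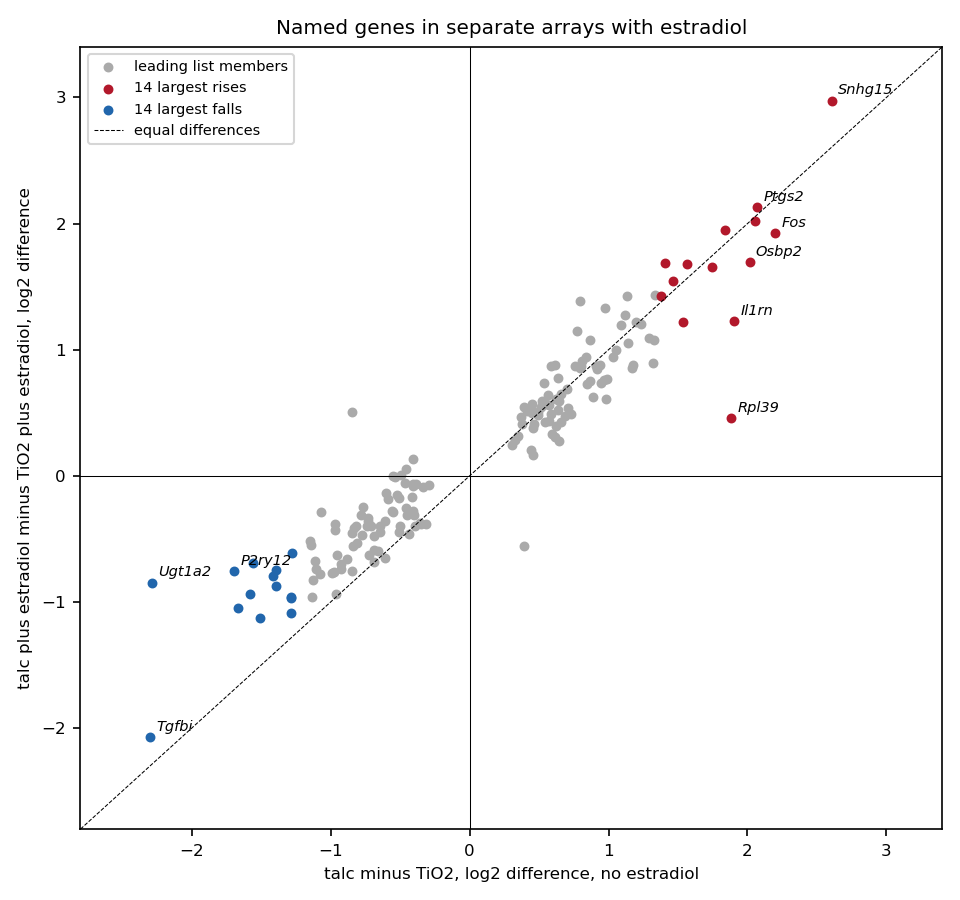
Talc minus TiO2 log2 difference without estradiol (horizontal axis) and with estradiol (vertical axis) for the named genes. Each point is 1 gene: red for the 14 largest rises, blue for the 14 largest falls and grey for leading list members, and the dashed line marks equal differences. Snhg15 (2.61 and 2.97) and Tgfbi (-2.30 and -2.07) lie near the line, and all 14 blue points lie above it, with smaller falls with estradiol. These 14 falls were chosen as the largest without estradiol, and such a choice alone can give smaller values in the other arm.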

How the data were processed

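The deposited values are intensities on a linear scale for 269751 probe sets of mouse exon arrays, which the authors summarised with RMA per the submitters' processing notes; its version, the summary level and the step back from the log scale are not given in the sources used here. The raw array files were not used here. Log2 was taken without an offset, since the lowest intensity was 1.46. Probe sets with 1 gene symbol (233753; 5106 had several and 30892 none, and 2247 symbols were updated) were averaged on the log2 scale to 23102 genes, with a median of 8 probe sets per gene; 2303 genes rest on 1 probe set. A gene value from many exons averages over transcripts and probe sets that can differ.

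Groups followed the sample descriptions, 3 arrays in each of 6 groups. limma 3.58.1 (R 4.3.3) fitted 1 mean per group over all 18 arrays, with Benjamini-Hochberg adjustment over all genes, two-sided tests and a threshold of 0.05. The number of arrays limits the precision: residual degrees of freedom were 12, prior degrees of freedom 4.57 and the median standard error 0.15. The procedure was tested on simulated data.

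The members, the 38 gene lists (887 of 917 members measured) and the rules were chosen with earlier results of these data known. Named genes, 179 in all, were the 14 largest rises, the 14 largest falls and the leading genes of each list. They also included the 5 genes with the smallest interaction p. The largest rises and falls were taken from passing genes with a standard symbol whose talc and TiO2 arrays did not overlap. Their lack of overlap is therefore part of the choice and not a separate result. Leading list members were passing genes with large differences relative to their error, so the same largely holds for them. Other members are named as such. Alternatives covered the arrays fitted, scaling, low intensities, probe set summary, moderation, array weights, and each array left out.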

Additional observations from a re-analysis of the deposited data

How the results depend on the processing

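The 2301 genes that differed between talc and TiO2 became 1011 with the 6 compared arrays alone (984 of them among the 2301), 1480 with each gene's brightest probe set (1013 shared), 1278 with the median of probe sets (1055 shared), and 4407 of 233753 when each probe set was tested by itself. A test against a 1.2-fold minimum left 419, and leaving out 1 array left 1353 to 1855, the fewest without talc replicate 3. With estradiol the 2201 genes became 812, 1248 and 1183 in the first 3 of these, and 1221 to 1738 with 1 array left out (in the talc plus estradiol group, 1221 without replicate 3 and 1457 without replicate 1). The interaction, with 0 genes, gave 8 when only genes above the median level were tested, and 0 to 2 with 1 array left out (2 without TiO2 replicate 2, 1 without talc replicate 2 or talc plus estradiol replicate 2). The share of higher genes with estradiol, 69.9%, was 51% after quantile normalization, 84.1% with array medians subtracted and 38.8% with the brightest probe sets. Subtracting array medians moved the median interaction over all genes to 0.12.

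Directions turned with the brightest probe set in Rrp12 (-0.033), Ccl22 (-0.14), Nr1h3 (-0.17), Gstp1 (0.23) and Snhg17 (-0.41), and with the median of probe sets in D630033O11Rik (-0.28). The causes were not tested. The call was kept in every alternative run by 12 of the 14 largest rises, 12 of the 14 largest falls and 68 of 146 leading list members. In the refit of genes above the median level, 1410 of 11540 genes were higher and 1705 lower. The integrated stress response list there had 8 of 25 higher and 5 lower. Lower counts were 4 of 23 for the endoplasmic reticulum list, 4 of 10 for oxysterol-binding proteins and 3 of 12 for RGS proteins. Of 19 Toll-like receptor and adaptor genes 3 were higher. The lower counts of the integrated stress response and endoplasmic reticulum lists, and this last count, lay not far from the shares of all genes there. No paired analysis was possible because the labels pair no samples and replicate numbers were assigned in accession order.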

Other observations

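Protein-coding genes held 2188 of the genes that differed between talc and TiO2, out of 19719 tested (11.1%). Long non-coding RNAs held 75, which is 3.46% of those tested, with 37 higher and 38 lower with talc, and microRNA genes 13 of 498 (2.61%), with 4 higher and 9 lower.

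Genes with calls in opposite directions in the arms with and without estradiol numbered 9. Acadvl, an enzyme of mitochondrial fatty acid oxidation, differed by 0.36 with estradiol and -0.37 without. Fcamr, a receptor for IgA and IgM, differed by -0.39 with estradiol and 0.41 without, and Ttc34 by -0.58 and 0.43. Their interaction adjusted p in limma lay between 0.101 and 0.137, so the difference between the arms did not pass. These genes were named after their values were seen.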
